A study of Mus musculus with 24 samples.

Results

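The genes described here mark the cells that build and maintain bone, measured in the cochlea of wild type and α9−/− mice. They are Runx2, Sp7, Alpl, Ibsp, Spp1, Dmp1, Phex, Mepe and Sost, and they were chosen by symbol, taking each probe set annotated with 1 of these 9 symbols alone. This gave 12 of the 45101 probe sets and 7 of the 9 genes. No probe set carried Runx2 or Spp1 as its single symbol in the annotation used here, and both genes were not analysed here. The 24 Affymetrix arrays each measured total RNA of pooled cochleae with their bony capsule, and 3 arrays were made for each genotype at postnatal days 3, 7, 13 and 60 (P3, P7, P13 and P60). Both genotypes shared a 129S6 x CBA/CaJ hybrid background, crossed back to CBA/CaJ for 7 generations or more, and no agent was given. The α9−/− mice lack the α9 subunit of the nicotinic receptor through which efferent fibers act on outer hair cells, and the null allele is not limited to the ear. Each array carried 1 pool of 3 to 5 mice according to the series description, so that the pool was the replicate. The methods count pools in cochleae and give larger pools at P3 and P7 than at P13 and P60, so pool size may differ with age.

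Cochleae lie within the otic capsule, a bony shell that forms from cartilage and mineralizes early in postnatal life. Osteoblasts secrete a collagen matrix and mineralize it, and those that are buried in the matrix become osteocytes, which control phosphate handling and restrain further bone formation. Sp7 (osterix) is a zinc finger transcription factor needed for osteoblasts to form, acting after Runx2. Alpl encodes the tissue-nonspecific alkaline phosphatase that removes pyrophosphate, an inhibitor of mineral. Ibsp (bone sialoprotein), Dmp1 and Mepe encode acidic matrix glycoproteins of the SIBLING family, as does Spp1. Dmp1, the endopeptidase gene Phex and Mepe are expressed in osteocytes and act in mineralization and phosphate balance, and Sost encodes sclerostin, a Wnt inhibitor secreted by mature osteocytes.

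In GRCm38.p6, Dmp1 (chromosome 5, 104197575 to 104214102), Ibsp (104299287 to 104311472), Mepe (104325329 to 104338611) and Spp1 (104435111 to 104441053) are neighbours within 243 kb. The other measured members lie apart. Sp7 lies on chromosome 15 (102356603 to 102367035), Alpl on chromosome 4 (137741731 to 137796384), Sost on chromosome 11 (101962458 to 101967015) and Phex on chromosome X (157162075 to 157415286).

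Promoters are shown for Mepe, Ibsp and Dmp1 (its second start, not the outermost) of this chromosome 5 cluster and for Alpl. Those of Spp1, Runx2, Sost and Phex were searched but are not printed. RefSeq windows of 300 bases (250 before a start and 50 after it) were held for 8 of the 9 members, in 11 windows. They were searched on both strands for ACCACA, the core bound by Runx factors (TGTGGT on the opposite strand), and for GGGCGG, a GC box (CCGCCC on the opposite strand). The motifs do not overlap each other in sequence. Of 32851 promoters of the same length, 16.8% held ACCACA and 35.7% held GGGCGG. Among the members 4 of the 11 windows held ACCACA, namely those of Mepe, Spp1 and Runx2 and the window of the second Dmp1 start. Mepe had ACCACA beginning at −118 from its start and the reverse form at −80. In the following sequences, 5′ to 3′ on the coding strand over the 250 bases that precede the start, capitals mark either motif.
Mepe, chr5:104325079-104325328, plus strand: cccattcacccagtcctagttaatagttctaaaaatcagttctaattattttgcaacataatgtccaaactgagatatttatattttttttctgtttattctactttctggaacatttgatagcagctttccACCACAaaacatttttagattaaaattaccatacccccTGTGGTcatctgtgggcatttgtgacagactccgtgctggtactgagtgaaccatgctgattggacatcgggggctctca
Dmp1, second start, chr5:104202367-104202616, plus strand: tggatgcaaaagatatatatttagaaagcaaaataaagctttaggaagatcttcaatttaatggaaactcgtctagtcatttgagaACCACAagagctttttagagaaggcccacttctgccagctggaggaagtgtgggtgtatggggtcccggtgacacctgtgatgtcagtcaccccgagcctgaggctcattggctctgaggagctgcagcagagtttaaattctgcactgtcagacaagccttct
Ibsp, chr5:104299037-104299286, plus strand: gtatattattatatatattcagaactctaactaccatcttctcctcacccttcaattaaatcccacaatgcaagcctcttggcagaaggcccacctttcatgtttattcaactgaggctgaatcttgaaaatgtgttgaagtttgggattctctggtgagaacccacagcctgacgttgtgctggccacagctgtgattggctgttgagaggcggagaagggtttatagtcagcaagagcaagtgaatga
Alpl, outermost start, chr4:137796385-137796634, minus strand: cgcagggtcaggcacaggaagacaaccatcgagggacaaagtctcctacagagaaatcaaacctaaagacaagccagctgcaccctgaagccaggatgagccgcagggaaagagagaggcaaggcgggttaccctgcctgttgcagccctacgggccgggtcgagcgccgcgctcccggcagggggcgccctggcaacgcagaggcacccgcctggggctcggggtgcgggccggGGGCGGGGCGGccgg
ACCACA stands in the Mepe window and in that of the second Dmp1 start. It is absent from the window of the outermost Dmp1 start, the Ibsp, Sost and Phex windows and either Alpl window. The Alpl capitals are overlapping GC boxes. A match of letters is a description and does not show that a factor binds.

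The deposited values were log2 signals, so a difference of 1 is a doubling. A probe set was called different when limma gave a Benjamini-Hochberg adjusted p under 0.05 together with a log2 difference of at least 1.5. Where genes of a list are counted as having risen or fallen, the count is of calls. Where a gene had several probe sets, the brightest over all arrays represents it unless another is named. Signals of different genes are not compared with each other, since probe sets differ in brightness for reasons other than abundance. In bulk RNA, fewer cells of a type and less RNA per cell cannot be told apart.

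The quality of the arrays differed in ways that touch these genes. Gapdh control probe sets at the 3′ end were brighter than those at the 5′ end by more than 4 (log2) in 5 arrays, from 6.30 to 7.69, against at most 2.43 in the other 19. They are called low-5′ arrays here, and comprised both the first and second of the wild type pools at P13, the first wild type pools at P3 and P60, and the second α9−/− pool at P3. The value of 2.43 was that of the third wild type pool at P13, while the α9−/− pools of P13 had at most 0.34. Leaving out the low-5′ arrays therefore does not level this measure between the genotypes at P13. Replicate arrays correlated at 0.915 to 0.989. The 3 probe sets of the targeted gene Chrna9 gave log2 signals of 3.24 to 6.33 across all arrays, with all α9−/− arrays below all wild type arrays in 3 of 12 pairs of probe set and age, so they do not check the genotype labels well. The sources do not say whether these probes lie in the deleted part. Hair cell markers, 7 genes, averaged 5.68 to 6.36 in every array.

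From the first week to the adult, the osteoblast and osteocyte genes had the same broad course in both genotypes. Each of the 7 genes had its lowest mean at P60 in wild type and in α9−/−. The highest mean of Sp7, Alpl, Ibsp and Sost was at P7 in both genotypes, and that of Dmp1 and Phex was at P13. Mepe was highest at P13 in wild type and at P7 in α9−/−. The means of P7 and P13 did not differ at an adjusted p under 0.05 for any representative probe set other than Sp7 in wild type, so the order of these ages was not resolved for the rest.

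**Figure D1:**
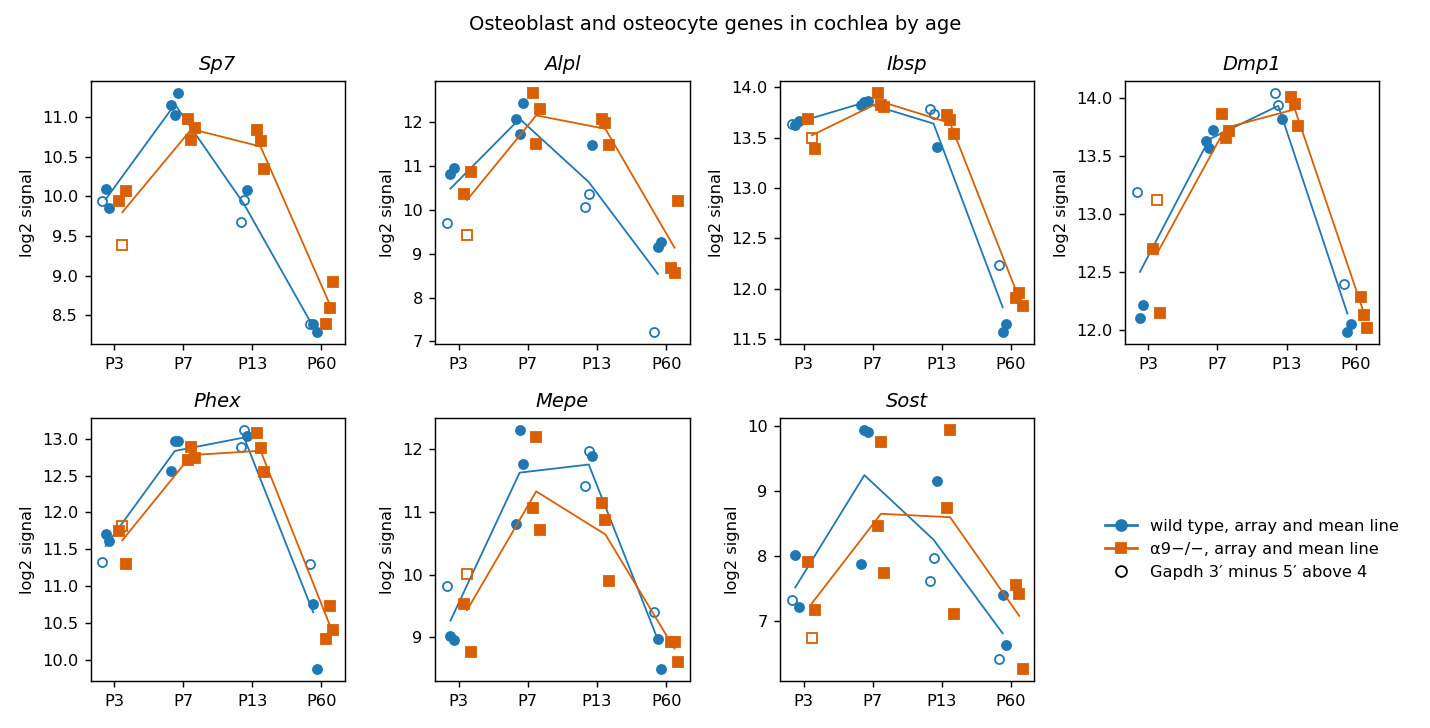
Log2 signal (vertical axis) of the brightest probe set of each gene by age (horizontal axis), with 1 point per array, wild type as circles, α9−/− as squares, open symbols for arrays whose Gapdh 3′ minus 5′ signal exceeded 4, and lines joining group means. All 7 genes have their lowest means at P60, and no gene is called between genotypes at any age.

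Between P3 and P7 all 12 probe sets had higher means in both genotypes, and 2 were called higher in each, against 0.324% of all probe sets called higher in wild type and 0.273% in α9−/−. Of the 12, the dimmer Sost probe set 1421245_at read only 3.88 to 6.34 across all arrays, near the range of the Chrna9 probe sets. The median difference over the 12 was 1.26 in wild type and 1.17 in α9−/−, beside 0.13 and 0.12 over all probe sets. An adjusted p under 0.05 was reached by 6 of the 12 in each genotype, and an unadjusted p under 0.05 by 8 in wild type and 7 in α9−/−, beside 12.9% and 13.2% of all probe sets.

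Mepe was the 1 gene called at its representative probe set. Its log2 signals in wild type were 9.81, 9.02 and 8.96 at P3 and 10.80, 12.31 and 11.77 at P7. In α9−/− they were 9.53, 10.002 and 8.76 at P3 and 11.07, 12.20 and 10.72 at P7. No array of P3 reached the level of any array of P7. The rise was 2.36 ± 0.43 (SE) in wild type (5.14-fold, adjusted p = 0.00777 by limma) and 1.90 ± 0.43 in α9−/− (3.72-fold, adjusted p = 0.0351 by limma). The call was lost in wild type without P3 replicate 2 or 3 or P7 replicate 2 or 3 (adjusted p from 0.0503 to 0.0654), and in α9−/− without P3 replicate 1 or 3 or any 1 of the P7 replicates (0.0503 to 0.173).

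Dmp1 was measured by 3 probe sets that differed in the size of the step. With the dimmest, 1426005_at, signals in wild type went from 10.02, 10.23 and 10.42 to 11.85, 12.51 and 12.58, and in α9−/− from 10.95, 10.71 and 9.82 to 11.69, 12.27 and 12.03. The ages did not overlap in either genotype. This probe set rose by 2.09 ± 0.29 in wild type (4.26-fold, adjusted p = 0.000748 by limma) and by 1.5 ± 0.29 in α9−/− (2.83-fold, adjusted p = 0.0145). The brightest, 1443745_s_at, was higher by 1.14 ± 0.25 and 1.09 ± 0.25, below the fold limit. In that probe set the low-5′ arrays of P3 read 13.18 and 13.11, above every other P3 array, and without the low-5′ arrays its difference was 1.49 in wild type and 1.32 in α9−/−.

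Sp7 and Phex were higher at P7 by steps below the fold limit. Sp7 went from 9.95, 10.10 and 9.85 to 11.16, 11.03 and 11.31 in wild type, a difference of 1.20 ± 0.19 (adjusted p = 0.00295 by limma). In α9−/− it went from 9.95, 9.39 and 10.07 to 10.98, 10.71 and 10.87, a difference of 1.05 ± 0.19 (adjusted p = 0.0117). Neither genotype had overlapping ages. Phex differed by 1.29 ± 0.26 in wild type (adjusted p = 0.0171 by limma) and 1.16 ± 0.26 in α9−/− (adjusted p = 0.0349).

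Ibsp, the sialoprotein of mineralizing matrix, was already near its highest level at P3 by its brightest probe set. That probe set read 13.64, 13.63 and 13.67 in wild type at P3 and 13.82, 13.85 and 13.87 at P7, a difference of 0.20 ± 0.17 (adjusted p = 0.644 by limma). In α9−/− the difference was 0.34 ± 0.17 (adjusted p = 0.396). The other probe set, 1417485_at, had means of 10.99 and 13.14 in wild type and 11.67 and 13.03 in α9−/−, without a call. Its lowest P3 values were those of the low-5′ arrays. Alpl differed by 1.59 ± 0.55 in wild type and 1.93 ± 0.55 in α9−/− without passing (adjusted p = 0.207 and 0.105 by limma).

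**Figure D2:**
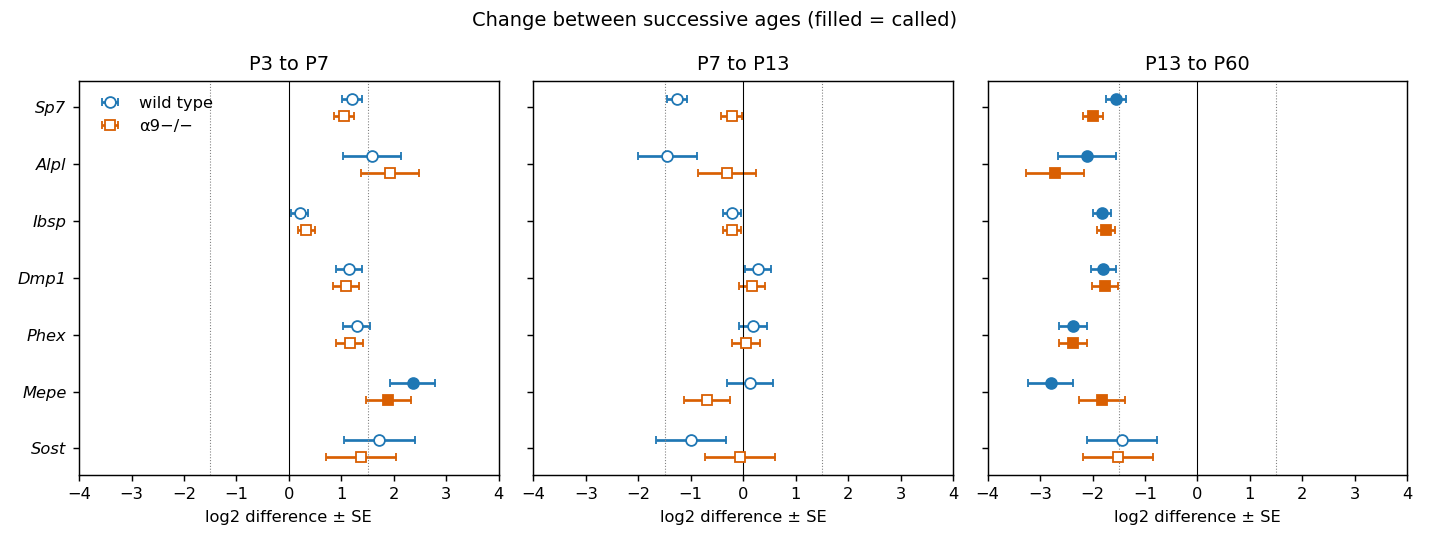
Log2 difference between successive ages (horizontal axis, ± SE from limma) for the representative probe set of each gene (vertical axis), wild type as circles and α9−/− as squares, filled where called and with dotted lines at −1.5 and 1.5. Mepe is the called gene of the first step, no gene is called in the second, and 6 of 7 genes are called lower in the last step in both genotypes.

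At P7 the pools of both genotypes were spread in Sost, in Mepe and in the dimmer Phex probe set. Sost read 7.87, 9.94 and 9.91 in wild type replicates 1 to 3 and 8.46, 9.75 and 7.74 in α9−/− replicates 1 to 3. Wild type replicate 1 and α9−/− replicates 1 and 3 were the lower 3 of the 6 arrays. The same 3 arrays were the lower ones for Mepe (10.72 to 11.07 against 11.77 to 12.31) and for the dimmer Phex probe set 1450445_at (6.54 to 6.80 against 9.01 to 9.41). Their Gapdh 3′ minus 5′ signals were also the higher 3 at P7, at 1.27, 0.848 and 0.393 against 0.241, 0.173 and −0.0938, and the part of RNA quality in this split was not tested. These arrays were told apart by their values and are not groups of the study. At the brightest Dmp1 probe set the 6 arrays read only 13.57 to 13.86, with α9−/− replicate 1 the highest. At Dmp1 1426005_at the same 3 were lower (11.69 to 12.03 against 12.27 to 12.58). The brightest Phex probe set read only 12.56 to 12.98, with the same 3 lower. Over all 24 arrays, deviations of Mepe and Sost from their group means correlated at r = 0.60, a description with no test. Those of Sost with Dmp1 and with Phex gave r = −0.09 and 0.30.

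Between P7 and P13, the ages before and just after hearing begins, no member was called in either genotype by limma. An unadjusted p under 0.05 was reached by 3 of the 12 probe sets in wild type and 0 in α9−/−, beside 35.7% and 17.3% of all probe sets. Over all probe sets, 5.23% were called in wild type and 1.54% in α9−/−, in either direction. Differences ran from −2.84 to 0.29 in wild type and from −0.69 to 0.76 in α9−/−.

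Sp7 was the member with the clearest difference in this step. In wild type it read 11.16, 11.03 and 11.31 at P7 and 9.67, 9.96 and 10.08 at P13, a difference of −1.26 ± 0.19 (adjusted p = 0.000158 by limma), short of the fold limit. It was −1.56 and called after quantile normalization over all arrays. In α9−/− the signals were 10.98, 10.71 and 10.87 at P7 and 10.84, 10.70 and 10.35 at P13, a difference of −0.22 ± 0.19 (adjusted p = 0.65). The ages overlapped in α9−/− and not in wild type. The difference between both changes was 1.04 ± 0.27, with an unadjusted p = 0.00119 and an adjusted p = 0.411 in the interaction test of limma. No other member had an unadjusted p under 0.05 in this test, which 9.3% of all probe sets reached, while 0.00222% were called. For Sp7 it was called only with array weights (1.01, adjusted p = 0.00912) among the alternatives, and without the low-5′ arrays it was 0.87 (adjusted p = 0.498).

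Alpl differed by −1.44 ± 0.55 in wild type (adjusted p = 0.068 by limma) and by −0.31 ± 0.55 in α9−/−. Without the low-5′ arrays, which leaves 1 wild type array at P13 whose spread is taken from the other groups, the wild type difference was −0.59 ± 0.54, and after quantile normalization over all arrays it was −1.73 and called (adjusted p = 0.0421). The test of the interaction gave 1.14 ± 0.78 for Alpl (adjusted p = 0.61).

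From P13 to P60 all 12 probe sets had lower means in both genotypes. Of the 12, 9 were called lower in wild type and 9 in α9−/−, against 2.88% and 1.88% of all probe sets. They represented 6 of the 7 genes in both genotypes. The median over the 12 was −1.96 in wild type and −1.91 in α9−/−, beside −0.36 and −0.34 over all probe sets, a shift of the whole scale that quantile normalization over all arrays reduced to −0.06 and −0.04. After that normalization all 12 differences were still below 0 in both genotypes, with medians of −1.60 and −1.56. An adjusted p under 0.05 was then reached by 8 in each genotype, and 5 in wild type and 4 in α9−/− passed the fold limit too. Sp7 (−1.18), Alpl (adjusted p = 0.052 by limma) and Dmp1 (−1.47) lost their calls in wild type, and Ibsp (−1.48), Mepe (−1.46) and Dmp1 (−1.48) in α9−/−.

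Ibsp and Dmp1, the matrix glycoproteins, fell in both genotypes. Ibsp went from 13.78, 13.73 and 13.40 to 12.24, 11.57 and 11.64 in wild type, and from 13.72, 13.68 and 13.54 to 11.91, 11.96 and 11.83 in α9−/−. No P60 array reached a P13 array. The changes were −1.82 ± 0.17 (3.54-fold lower, adjusted p = 4.5e-07 by limma) and −1.74 ± 0.17 (3.35-fold lower, adjusted p = 1.85e-06). Dmp1 at its brightest probe set changed by −1.79 ± 0.25 in wild type and −1.76 ± 0.25 in α9−/−, and at 1426005_at by −2.84 ± 0.29 and −2.41 ± 0.29. All 3 Dmp1 probe sets were called in both genotypes.

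Phex, whose loss causes X-linked phosphate wasting, went from 12.89, 13.12 and 13.04 to 11.30, 10.76 and 9.87 in wild type. In α9−/− it went from 13.08, 12.87 and 12.56 to 10.28, 10.73 and 10.40. The ages stood apart, with changes of −2.38 ± 0.26 (5.19-fold lower, adjusted p = 3.88e-06 by limma) and −2.37 ± 0.26 (5.16-fold lower, adjusted p = 7.93e-06). The dimmer probe set 1450445_at was called too, at −2.73 ± 0.77 and −2.65 ± 0.77.

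Mepe went from 11.41, 11.97 and 11.89 to 9.41, 8.98 and 8.49 in wild type, and from 11.15, 10.87 and 9.90 to 8.92, 8.93 and 8.61 in α9−/−. The ages did not overlap in either. It fell by 2.8 ± 0.43 in wild type (6.95-fold, adjusted p = 0.000139 by limma) and by 1.82 ± 0.43 in α9−/− (3.54-fold, adjusted p = 0.00766). The difference between both changes, 0.98 ± 0.61, did not pass. In α9−/− the call was lost without P13 replicate 1 (adjusted p = 0.052).

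Sp7 and Alpl, the genes of active osteoblasts, fell in the same step. Sp7 reached 8.39, 8.39 and 8.28 at P60 in wild type and 8.39, 8.59 and 8.92 in α9−/−, changes of −1.55 ± 0.19 and −2.0 ± 0.19. Alpl reached 7.21, 9.15 and 9.26 in wild type and 8.67, 8.55 and 10.20 in α9−/−, changes of −2.10 ± 0.55 (adjusted p = 0.01 by limma) and −2.71 ± 0.55 (adjusted p = 0.00264). The lowest Alpl value was that of the low-5′ array, and without P60 wild type replicate 1 the Alpl change in wild type was −1.43, under the fold limit, as it was with array weights (−1.40). Sp7 in wild type was −1.47 without P13 replicate 3.

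Sost was the gene that was not called in this step. It read 7.62, 7.97 and 9.16 at P13 and 6.41, 7.39 and 6.62 at P60 in wild type, and 8.74, 9.94 and 7.11 against 7.55, 7.42 and 6.26 in α9−/−. The wild type ages stood apart while those of α9−/− overlapped, and the spread among P13 pools was wide in both genotypes (SD 0.80 and 1.42, n = 3). The differences were −1.44 ± 0.67 and −1.52 ± 0.67 (adjusted p = 0.113 and 0.128 by limma). The α9−/− difference passed with array weights (−1.51, adjusted p = 0.0338) and without P13 replicate 3 (−2.26, adjusted p = 0.0364).

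Over the whole interval from P3 to P60, 4 probe sets were called lower in wild type and 1 in α9−/−, against 1.3% and 1.52% of all probe sets. Ibsp was called in both, at −1.83 ± 0.17 and −1.62 ± 0.17, the latter being −1.41 after quantile normalization over all arrays. Sp7 (−1.61 ± 0.19), Alpl (−1.95 ± 0.55) and the dimmer Phex probe set (−3.01 ± 0.77) were called in wild type. In α9−/− they differed by −1.17, −1.09 and −1.46, and the difference between genotypes over this interval was not tested. Alpl lost its wild type call without P3 replicate 2 or 3 or P60 replicate 1 (adjusted p from 0.0864 to 0.133). Mepe and Dmp1 did not pass over this interval, with differences of −0.31 ± 0.43 and −0.36 ± 0.25 in wild type.

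Other genes of bone matrix and mineralization, 29 measured of a list of 37, moved in the same direction as the members. From P13 to P60, 16 fell in wild type and 15 in α9−/−, none rose, and the medians were −1.58 and −1.52. From P3 to P60 in wild type 14 fell and none rose. Of all probe sets, 2.88% in wild type and 1.88% in α9−/− were called lower from P13 to P60. From P3 to P60 in wild type the share was 1.3%. These shares stand beside the counts of the lists below as well, and shares called higher are not given here. Panx3, a channel protein of osteoblasts and hypertrophic chondrocytes, had the largest difference (−6.35 ± 0.48). Ifitm5, an osteoblast membrane protein, fell by 3.10 ± 0.29 and Smpd3, a sphingomyelinase needed for mineralization, by 2.84 ± 0.26. The parathyroid hormone receptor gene Pth1r changed by −2.40 ± 0.56. Cthrc1, a secreted glycoprotein with a short collagen-like repeat, fell by 3.35 ± 0.33. Serpinh1, a chaperone of collagen folding, fell by 3.04 ± 0.53, and the fibril collagen genes Col11a1 and Col5a2 fell by 2.50 ± 0.19 and 2.26 ± 0.20.

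Regulators of bone formation and phosphate, 29 measured of 30, mostly did not pass. From P13 to P60, 4 fell in each genotype and none rose. From P3 to P60 in wild type 1 rose and 2 fell. Tnfrsf11b, which encodes osteoprotegerin, the decoy receptor that limits osteoclast formation, rose by 3.26 ± 0.37. Tnfsf11, which encodes its ligand RANKL, fell by 2.25 ± 0.35, and Dkk1, a secreted Wnt inhibitor, fell by 2.00 ± 0.41. In α9−/− the same contrast gave 3.04, −2.55 and −2.21, each called.

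Osteoclast genes, 15 measured, also had lower signals in the adult, 10 of 15 falling from P13 to P60 in wild type and 8 in α9−/−. From P3 to P60 in wild type Ocstamp, needed for osteoclast fusion, fell by 4.33 ± 0.38, the protease gene Mmp9 by 3.76 ± 0.29 and Ctsk, the collagen-degrading cathepsin, by 3.31 ± 0.31. Of 15 cartilage genes, 3 fell from P13 to P60 in wild type and 4 in α9−/−. From P3 to P60 in wild type 8 fell and 1 rose, with Col10a1 of hypertrophic cartilage (−4.90 ± 1.55), Col2a1 (−4.32 ± 0.31) and Matn1 (−4.27 ± 1.01) at the head.

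Markers of other tissues moved over the same step. The mean signal of 8 cerebellar genes was 6.63 to 9.72 at P13 and 7.94 to 10.77 at P60 in wild type, and 6.17 to 8.04 against 9.68 to 11.90 in α9−/−. For none of these 8 genes was the change from P13 to P60 called different between genotypes (adjusted p = 0.99992 for each in the interaction test of limma). The mean of 10 skeletal muscle genes went from 8.78 to 9.87 in wild type and from 7.23 to 10.02 in α9−/−. These means are a description. Neutrophil genes, 11 measured, all rose from P3 to P60 in both genotypes, but their mean went down from P13 to P60. It went from 12.54 to 11.62 in wild type and from 11.80 to 11.44 in α9−/−. The mean of 6 erythroid genes went from 10.40 to 8.68 in wild type and from 10.28 to 8.70 in α9−/−. B cell precursor genes fell in 8 of 9 in wild type and 7 of 9 in α9−/− from P13 to P60. The part of these tissues in the lower bone signals was not tested.

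**Figure D3:**
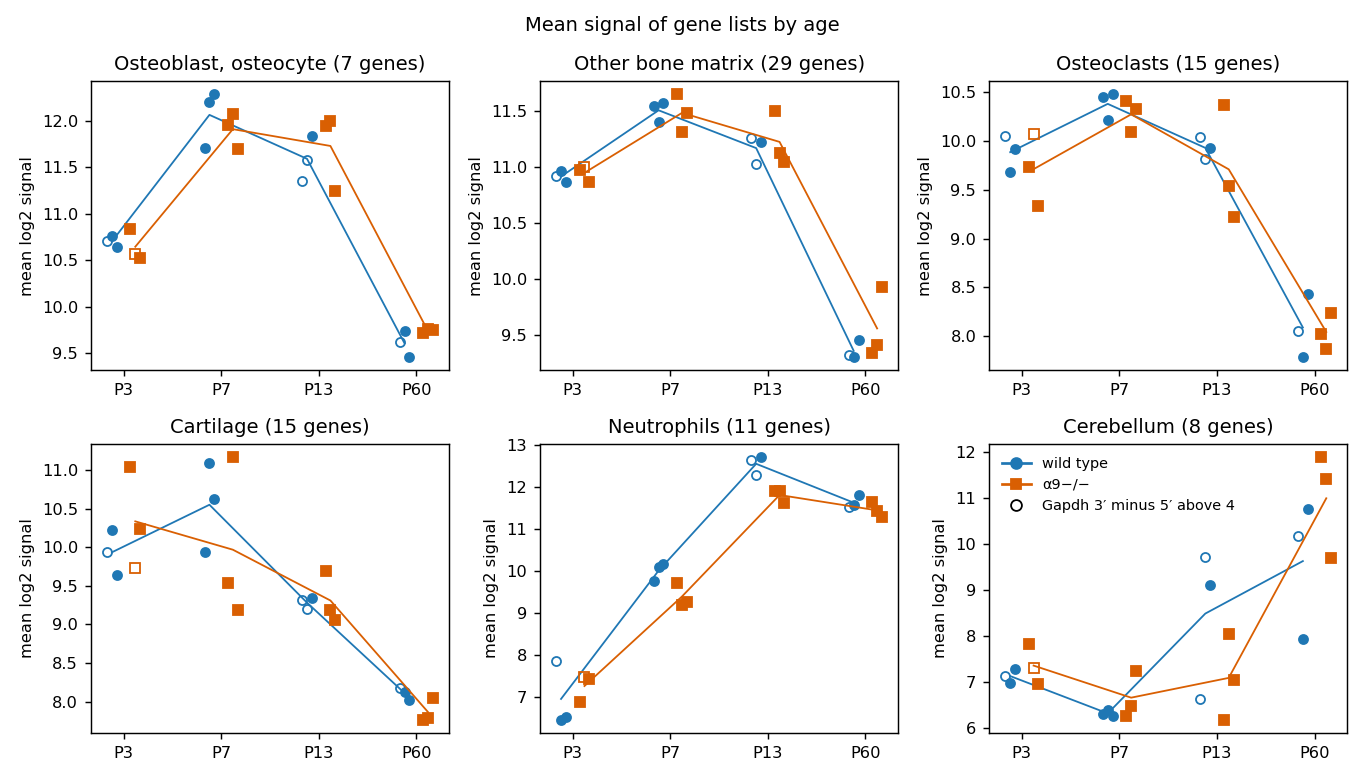
Mean log2 signal over the genes of a list (vertical axis) by age (horizontal axis), with 1 point per array, symbols as for the single genes and lines joining group means. The members and the other bone, osteoclast and cartilage lists have their lowest means at P60, while neutrophil and cerebellar means are above their P3 level at P60.

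The 10 genes most like the members were found by the correlation of their signal with the mean of the 7 standardized member profiles, over 24 arrays and among 18187 other genes. They were Ccn4 (r = 0.969), Srpx2 (0.954), Fat1 (0.949), Col11a1 (0.944), Sgms2 (0.943), Tiam2 (0.942), Cd109 (0.942), Dap (0.940), Slit2 (0.940) and Rhbdl2 (0.938). Ccn4, a secreted protein induced by Wnt signals, differed by 1.26 from P3 to P7 and by −2.85 from P13 to P60 in wild type. The members themselves correlated with their mean at 0.809 (Sost) to 0.957 (Phex). The pair most alike was Alpl and Sp7 (r = 0.924), and the pair least alike was Sost and Ibsp (r = 0.556). Arrays share age as their main difference, so these values describe the common course and have no test.

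Between genotypes no member was called at any age by limma. At P3 and at P7 no probe set had an unadjusted p under 0.05, at P13 4 of 12 and at P60 2 of 12. Over all tested probe sets these shares were 1.75%, 1.48%, 37.3% and 6.1% in the order of age, and the called shares were 0%, 0.0111%, 7.07% and 0% at P3, P7, P13 and P60. Differences of the members ran from −0.42 to 0.67 at P3, from −0.67 to 0.10 at P7 and from −0.17 to 1.57 at P60. The highest at P60 was that of the Ibsp probe set 1417485_at. The arrays of the genotypes did not overlap for 1 of the 12 probe sets at P3, 1 at P7, 3 at P13 and 1 at P60, beside 5.78%, 4%, 41.9% and 11.7% of all tested. At P3 this was the dim Sost probe set 1421245_at (−0.42), whose closest wild type and α9−/− arrays read 4.87 and 4.86. At P7 and P60 it was Sp7, with differences of −0.31 and 0.28, where 1.82% and 6.03% of all tested did not overlap in those directions.

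At P13 the members did not move one way. Alpl read 10.06, 10.36 and 11.49 in wild type and 12.09, 11.98 and 11.49 in α9−/−. The genotypes met at 11.49, and the lower wild type values were those of the low-5′ arrays. The difference was 1.22 ± 0.41 (2.32-fold higher in α9−/−, adjusted p = 0.078 by limma). Without the low-5′ arrays it was 0.36 ± 0.37. That fit holds 1 wild type array, which is assumed to vary as the 3 α9−/− arrays do, so its SE takes no spread from wild type and a missing call in it says nothing of stability. Without wild type replicate 3, which leaves the low-5′ arrays alone for wild type, it was 1.64 and passed (adjusted p = 0.0113).

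Sp7 was higher in every α9−/− array at P13, at 10.84, 10.70 and 10.35 against 9.67, 9.96 and 10.08 in wild type. The arrays did not overlap, as in 20.7% of all tested probe sets in that direction. The difference was 0.73 ± 0.26 (adjusted p = 0.0877 by limma), and 0.55 ± 0.35 without the low-5′ arrays. Mepe lay the other way, at 11.15, 10.87 and 9.90 in α9−/− and 11.41, 11.97 and 11.89 in wild type. These arrays did not overlap either, as in 21.2% of tested probe sets in that direction. The difference was −1.12 ± 0.37 (adjusted p = 0.0774), and −1.24 ± 0.54 without the low-5′ arrays.

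Beside these differences, the wild type and α9−/− arrays of P13 differed in marker lists. The mean of 11 neutrophil genes was 12.29 to 12.71 in wild type and 11.62 to 11.91 in α9−/−, and that of 9 B cell precursor genes 9.34 to 10.04 and 8.95 to 9.28. The mean of 10 skeletal muscle genes was 7.15 to 9.91 in wild type and 7.20 to 7.25 in α9−/−, and that of 8 cerebellar genes 6.63 to 9.72 and 6.17 to 8.04, so that both overlapped while their group means lay further apart than those of the blood cell lists. The mean of the other bone matrix genes overlapped, at 11.02 to 11.25 and 11.04 to 11.50, as did that of the osteoclast genes, at 9.82 to 10.04 and 9.22 to 10.37. The part of blood cells, muscle and cerebellum in the differences of Sp7, Alpl and Mepe was not tested.

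**Figure D4:**
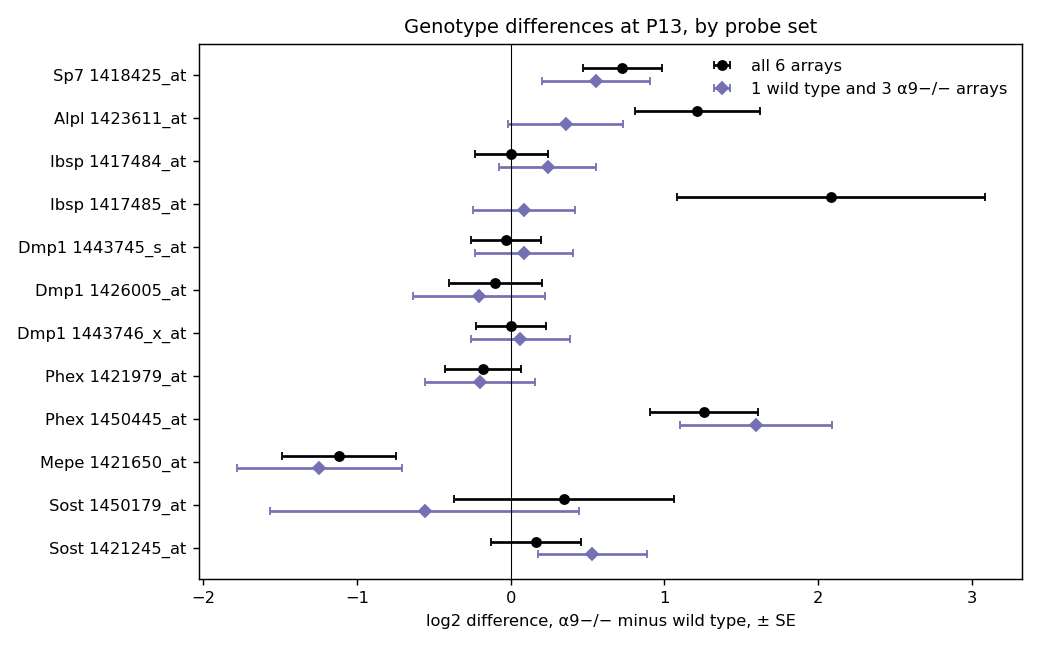
Log2 difference between α9−/− and wild type at P13 (horizontal axis, ± SE from limma) for each of the 12 probe sets (vertical axis), with all 6 arrays (circles) and with the low-5′ arrays left out (diamonds). The differences of Alpl and of Ibsp 1417485_at go from 1.22 to 0.36 and from 2.08 to 0.09, and that of Mepe from −1.12 to −1.24. No probe set is called with all 6 arrays, and the fit without the low-5′ arrays takes its spread from the 3 α9−/− arrays alone.

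The probe sets of Ibsp and Phex did not give the same answer at P13. Ibsp 1417484_at differed by 0.01 ± 0.24 between genotypes, and Ibsp 1417485_at by 2.08 ± 1.00 (adjusted p = 0.168 by limma). The latter read 7.73, 10.87 and 12.29 in wild type and 12.43, 12.54 and 12.18 in α9−/−, with the low-5′ arrays lowest. Without them its difference was 0.09 ± 0.33. Phex 1421979_at differed by −0.18 ± 0.25 and Phex 1450445_at by 1.26 ± 0.35 (adjusted p = 0.052). Phex 1450445_at read 7.45, 7.16 and 6.79 in wild type and 8.58, 8.84 and 7.74 in α9−/−, without overlap, and without the low-5′ arrays the difference was 1.60 ± 0.49. The wild type array kept there, replicate 3, had a Gapdh 3′ minus 5′ signal of 2.43, against at most 0.34 in α9−/−. Its distance between both Phex probe sets was 6.25, against 4.03 to 4.82 in the α9−/− arrays of P13.

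The distance between both Ibsp probe sets moved with the Gapdh controls and with age. It was 2.86 to 6.29 (median 5.67) in the 5 low-5′ arrays and 0.21 to 4.19 (median 1.24) in the other 19. Of those 19, the P60 arrays had 2.27 to 4.19 and the arrays of earlier ages at most 1.36. The distance for Phex was 5.31 to 6.70 (median 5.45) in the low-5′ arrays and 3.29 to 6.29 (median 4.50) in the others. In the 4 groups that hold a low-5′ array, those arrays were the lowest of their group in 4 of 4 for Alpl and for Ibsp 1417485_at. For Dmp1 1443745_s_at they were the highest in 4 of 4, and for Mepe in 3 of 4. Members therefore moved in opposite directions in the same arrays, and the deviations of Alpl and Dmp1 from their group means correlated at r = −0.60 over 24 arrays. The sources do not say where a probe set lies along its transcript. Without the low-5′ arrays Ibsp 1417485_at changed from P13 to P60 by −3.96 ± 0.62 in wild type. That leaves 1 wild type array at P13, whose spread is taken from the other groups. In α9−/−, which has no low-5′ array at these ages, the change in that fit was −3.06 ± 0.41 (adjusted p = 0.000157 by limma). With all arrays this probe set had not passed in either genotype.

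**Figure D5:**
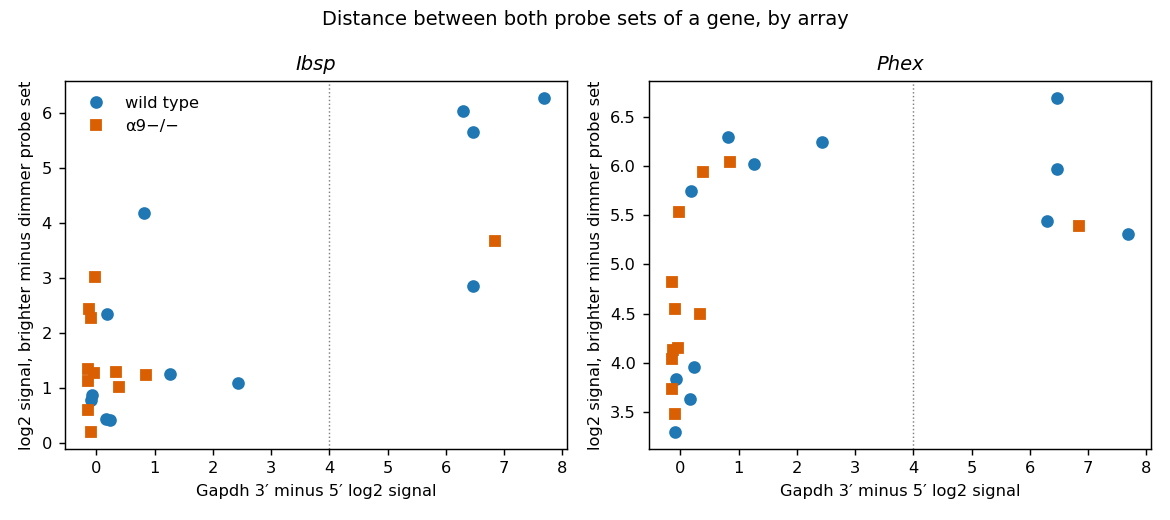
Distance in log2 signal between the brighter and the dimmer probe set of Ibsp and of Phex (vertical axis) against the Gapdh 3′ minus 5′ log2 signal (horizontal axis), with 1 point per array, wild type as circles, α9−/− as squares and a dotted line at 4. For Ibsp the 5 arrays right of the line have distances of 2.86 to 6.29, and the other 19 have a median of 1.24. Of those 19, the P60 arrays have 2.27 to 4.19 and the arrays of earlier ages at most 1.36.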

How the data were processed

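Cochlear RNA on 24 arrays was grouped by the genotype and age in the labels. The deposited values were log2 signals, made by the authors in R with RMA background correction, quantile normalization and a Tukey biweight summary (AffyPLM). The methods state quantile normalization across all ages and genotypes for a clustering analysis, and do not say whether the deposited values were normalized that way or by age. Probe sets were named from the platform annotation: 34958 have 1 gene symbol, 932 several and 9211 none.

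Genotypes were compared within each age with limma 3.58.1 in R 4.3.3, after the study's methods, keeping the most variable 40% (18040 probe sets). All 12 member probe sets passed that filter. Ages and interactions were fitted over 24 arrays and 45101 probe sets. Interactions were called at an adjusted p under 0.05 alone. List members between genotypes were tested without the filter. The scripts were tested on simulated data. Figures were drawn with matplotlib 3.10.9 in Python 3.11.15. The number of arrays limits the precision, and p-values measure the spread between pools.

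The members and lists were chosen with earlier results of these data known. Named list genes are those with the largest called P3 to P60 difference in wild type (up to 8 bone matrix genes, 6 regulators and 3 of another list, of which only osteoclast and cartilage genes are given), and the 10 genes most like the members. Other blood, tissue and ear lists served as background. Probe set 1450445_at of Phex and the array orders at P7 were chosen after their values were seen. Alternatives covered the filter, the scaling, the fold limit, array weights, a replicate block, low-5′ arrays, other probe sets and leaving out each array. Protein sequences were not used here.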

Additional observations from a re-analysis of the deposited data

Results flagged for a closer look

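Sp7 was singled out because its genotypes stood apart in opposite directions at different ages. At P7 all α9−/− arrays lay below all wild type arrays, with a difference of −0.31, while at P13 and P60 they lay above, with differences of 0.73 and 0.28. None of the 3 differences was called by limma, and at P60 the closest arrays of the genotypes both read 8.39. The change from P7 to P13 differed between genotypes by 1.04 (adjusted p = 0.411 in the interaction test), with adjusted p from 0.00912 to 0.758 over its alternatives. Arrays without overlap made up 1.82% of tested probe sets in that direction at P7, 20.7% at P13 and 6.03% at P60.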

How the results depend on the processing

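The direction of the 12 differences from P3 to P7 (higher) and from P13 to P60 (lower) held in both genotypes under both other scalings, while counts of calls moved where differences lay near the fold limit. Quantile normalization over all arrays gave 1 call from P3 to P7 in α9−/−, 2 from P7 to P13 in wild type, 5 and 4 from P13 to P60 in wild type and α9−/−, and 0 from P3 to P60 in α9−/−. Centring each array on its median gave 0 from P3 to P7 in α9−/− and 1 from P7 to P13 in wild type. An adjusted p alone gave 6 and 6 from P3 to P7, 1 from P7 to P13 in wild type and 3 from P3 to P60 in α9−/−. Array weights gave 1 between genotypes at P13, 2 from P7 to P13 in wild type, 3 from P3 to P60 in α9−/−, and 2 and 1 interactions for the steps P7 to P13 and P13 to P60. Without the low-5′ arrays, 2 were called from P3 to P60 in α9−/−.

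Leaving out 1 array at a time gave, in wild type and α9−/−, 1 to 3 and 0 to 2 calls from P3 to P7, 0 to 2 and 0 from P7 to P13, 8 to 9 and 7 to 10 from P13 to P60, and 2 to 5 and 1 from P3 to P60. Between genotypes it gave 0 to 2 at P13, with 2 only without P13 wild type replicate 3, and 0 at the other ages and for every interaction. The genotype difference of Ibsp at P13 (0.01) turned to −0.0784 with centring and −0.067 with array weights, and ran from −0.11 without P13 wild type replicate 3 to 0.0771 without replicate 1, with −0.03 and −0.01 without α9−/− replicates 1 and 2. That of Phex (−0.18) was 1.26 at its other probe set. The cause of these shifts was not tested.

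Correlations of same-numbered deviations, from groups of 3 arrays, did not settle whether replicate numbers pair the samples. They ran from −0.70 to 0.63, with 7 of 12 above 0.1. With the replicate number as a block the counts of calls were as before, 2 and 2 from P3 to P7, 9 and 9 from P13 to P60, and 4 and 1 from P3 to P60 in wild type and α9−/−, and 0 elsewhere. With 3 arrays per group, and 1 wild type array at P13 without the low-5′ arrays, the number of arrays limits the precision.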
